A study of Mus musculus with 4 samples.

Results

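Collagens VI, VIII, XII, XIV, XVI and XVIII are non-fibrillar collagens of the arterial wall. Their 9 genes, Col6a1, Col6a2, Col6a3, Col8a1, Col8a2, Col12a1, Col14a1, Col16a1 and Col18a1, were taken by gene symbol from the 32287 genes of the matrices, and all 9 were found, each on 1 row. Single-cell RNA libraries (10x Genomics 3′ chemistry v3.1) came from aortic smooth muscle cells of C57BL/6J mice aged 12 weeks, dissociated from the ascending aorta and arch with enzymes in the cold and sorted for green fluorescence. The 2 KO libraries (Tgfbr1/2iSMCKO) came from mice carrying the floxed alleles Tgfbr1f/f and Tgfbr2f/f, for both receptors of TGF-beta, besides Myh11-CreERT2 and mT/mG, and the 2 WT libraries (GFPiSMC) came from mice with Myh11-CreERT2 and mT/mG alone. Both genotypes carried tamoxifen-inducible Cre under the Myh11 promoter, which is active in smooth muscle, and the mT/mG reporter, which switches a cell to green fluorescence once Cre has acted. Tamoxifen was injected on 5 days at 1 or 2 mg per day, at an age of 4 or 11 weeks, and no label ties a course to a library or genotype, so its part in any difference cannot be told apart from that of the receptors. The labels do not give the number of mice per library, so p-values measure the spread between these libraries, which may be technical.

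Collagen VI is in its classical form assembled from 3 different chains inside the cell, is secreted as tetramers and forms beaded filaments next to the cell surface and the basement membrane. Collagen VIII forms a hexagonal network and is made by vascular cells during remodelling. Collagens XII, XIV and XVI belong to the fibril-associated collagens with interrupted triple helices (FACITs), which do not form striated fibrils of their own, and XII and XIV lie on the surface of fibrils of collagen I. Collagen XVIII is a basement membrane proteoglycan that carries heparan sulfate chains, and proteolysis of its C-terminal end releases endostatin.

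After filtering, 4252 and 3522 cells of KO 1 and KO 2 and 2429 and 3265 cells of WT 1 and WT 2 were kept, with 35255748 to 59203071 unique molecular identifiers (UMIs, counted molecules) per library and a median of 13898 to 15383 UMIs per cell. The median mitochondrial share per cell was 4.62% in WT 1, against 3.76%, 3.83% and 3.86% in KO 1, KO 2 and WT 2. A stricter filter (5000 or more UMIs, no more than 5% mitochondrial) kept 1412 of the 2429 cells of WT 1. In KO 1, KO 2 and WT 2 it kept 3581, 2795 and 2649 cells. No more than 6 barcodes were shared by any pair of libraries. The 7 smooth muscle markers summed to 50620 and 47530 CPM (UMIs scaled to a common library total after edgeR's TMM adjustment) in KO libraries and 44770 and 46820 in WT libraries. Tgfbr1 stood at 73.3 and 76.1 CPM in KO libraries and 80.8 and 82.3 in WT libraries, and Tgfbr2 at 46.5 and 47.3 in KO libraries and 51.7 and 45.1 in WT libraries, and neither passed the test (adjusted p = 0.203 and 0.752). These 3′ tags check nothing about recombination where they lie outside the deleted exons, which the labels do not name. Myh11, the smooth muscle myosin whose promoter drives Cre, stood at 7194 and 7028 CPM in KO libraries and 5207 and 5417 in WT libraries (log2 change 0.42, edgeR adjusted p = 0.000806). RNA of the tdTomato reporter, which is made before recombination, stood at 9.97 and 6.74 CPM in KO libraries and 0.0287 and 0.142 in WT libraries, and its part in the results was not tested.

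In KO cells Col18a1, Col14a1 and Col8a1 fell, Col16a1 rose, and the 3 chains of collagen VI did not pass the test, with log2 changes of −0.20 to 0.24. UMIs were summed per library and tested with edgeR's quasi-likelihood test with Benjamini-Hochberg adjustment over 14474 genes and a threshold of 0.05. The test called 20.3% of all tested genes, 9.17% as higher and 11.1% as lower in KO (1327 and 1611 genes), and without WT 1 it called 805 genes higher and 1039 lower. Of the 8 members that passed the expression filter, 1 was called higher and 3 lower, and 4 did not pass, and their median log2 change was −0.31, against −0.0037 over all tested genes. The KO and WT libraries did not overlap for 7 of these 8 members, against 63.5% of all tested genes. Both KO libraries lay above both WT libraries for 2 of the 7, against 31.3% of all tested genes, and below them for 5, against 32.3%. Col8a2 had too few UMIs for the test. Levels in CPM are compared only between libraries of the same gene, since 3′ counts do not give levels per length.

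**Figure D1:**
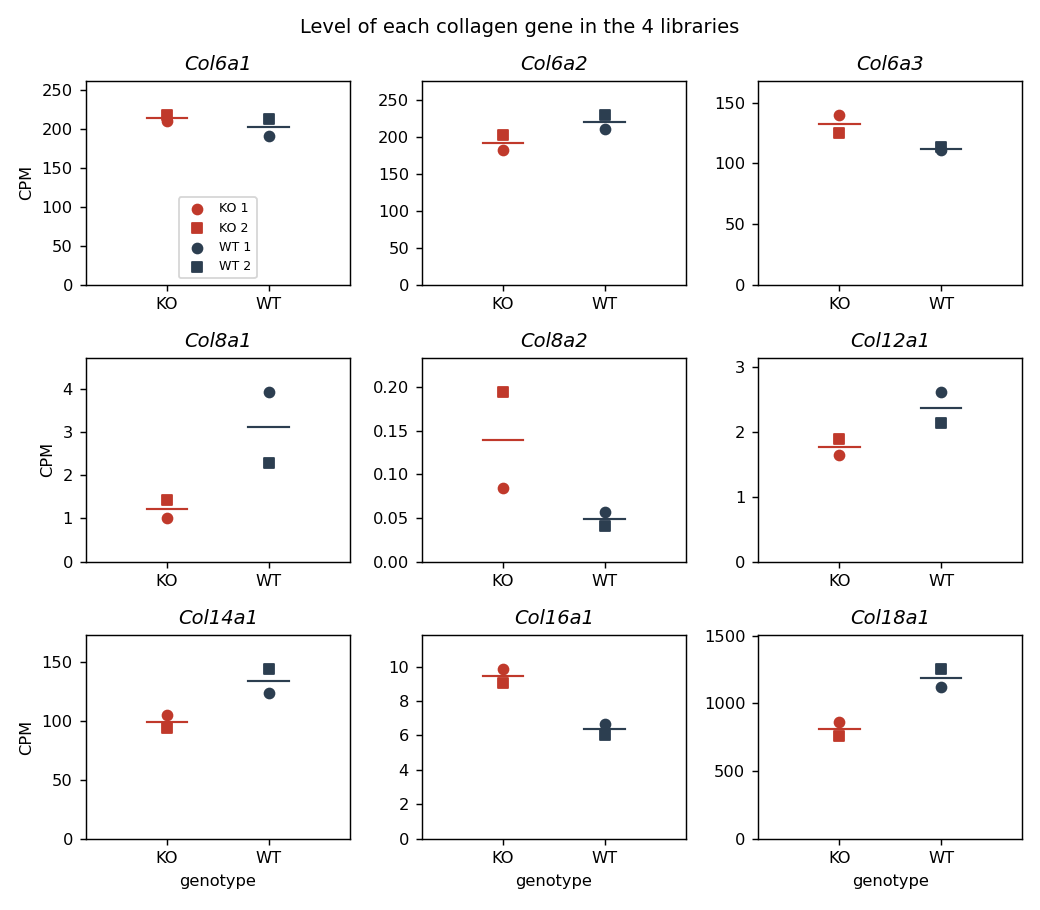
CPM (y axis, linear from 0, own scale per gene) of each collagen gene in KO 1, KO 2, WT 1 and WT 2 (points; circles are replicate 1, squares replicate 2), with the mean of each genotype as a line. Both KO libraries lie below both WT libraries for Col18a1, at 859 and 759.97 against 1118 and 1253, and above both for Col16a1, at 9.85 and 9.02 against 6.68 and 6.03.

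The promoters of the called genes Col18a1, Col16a1 and Col8a1 are shown with their matches to a SMAD-binding motif and a GC box, since SMADs carry TGF-beta signals and SP1 binds GC boxes. Sequences are from RefSeq on GRCm38.p6, written 5′ to 3′ on the strand of the gene, from 250 bases before to 50 after the annotated start. Capitals mark CAGAC or its reverse complement GTCTG (SMAD element) and GGGCGG or its reverse complement CCGCCC (GC box). Col18a1 has 2 annotated starts on the minus strand, which 3′ counts cannot tell apart. The start at chr10:77166481-77166780 lies upstream of the one at chr10:77113656-77113955, the promoter of Col16a1 is at chr4:130047590-130047889 on the plus strand, and that of Col8a1 is at chr16:57754688-57754987 on the minus strand.
Col18a1 upstream start: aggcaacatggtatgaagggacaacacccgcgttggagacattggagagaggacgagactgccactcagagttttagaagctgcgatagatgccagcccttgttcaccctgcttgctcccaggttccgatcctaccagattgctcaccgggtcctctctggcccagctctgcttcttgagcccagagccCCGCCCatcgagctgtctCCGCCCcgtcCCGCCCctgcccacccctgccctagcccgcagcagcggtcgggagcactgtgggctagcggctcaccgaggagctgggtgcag
Col18a1 downstream start: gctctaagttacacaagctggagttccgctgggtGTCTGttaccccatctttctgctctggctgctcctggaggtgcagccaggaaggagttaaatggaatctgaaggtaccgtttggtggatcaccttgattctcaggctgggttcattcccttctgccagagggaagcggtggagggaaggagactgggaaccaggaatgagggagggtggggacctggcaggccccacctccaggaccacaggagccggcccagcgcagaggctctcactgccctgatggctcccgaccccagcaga
Col16a1: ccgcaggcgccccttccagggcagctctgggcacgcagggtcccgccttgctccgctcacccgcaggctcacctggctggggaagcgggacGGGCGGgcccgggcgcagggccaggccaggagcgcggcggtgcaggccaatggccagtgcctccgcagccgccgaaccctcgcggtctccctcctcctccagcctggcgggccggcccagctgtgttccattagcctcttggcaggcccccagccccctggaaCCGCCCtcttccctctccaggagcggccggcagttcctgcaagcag
Col8a1: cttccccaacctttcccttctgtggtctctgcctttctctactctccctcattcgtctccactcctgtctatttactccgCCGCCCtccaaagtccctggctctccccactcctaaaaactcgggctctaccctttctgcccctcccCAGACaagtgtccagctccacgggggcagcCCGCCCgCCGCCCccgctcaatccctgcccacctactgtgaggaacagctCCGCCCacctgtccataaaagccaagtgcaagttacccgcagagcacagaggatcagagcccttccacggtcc

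The RefSeq promoters matched 7 of the 9 members, all but Col12a1 and Col14a1, and gave 9 promoters for them. CAGAC, searched on both strands, lay in 4 of these 9 promoters, against 49.6% of all 32851 promoters of the same length. Its shorter core GTCT, which overlaps it in the reverse complement, lay in 8 of 9, against 88.0%, and the palindrome GTCTAGAC in 0 of 9, against 0.2%. GGGCGG lay in 6 of 9, against 35.7%. This motif holds only G and C, and the 9 promoters had 56.3% to 74.3% G and C, against a median of 52.7% over all promoters. The 2 promoters of Col6a2 overlap each other. Among the promoters shown, CAGAC occurs once in Col8a1 and once at the downstream start of Col18a1, and GC boxes occur 4 times in Col8a1, 3 times at the upstream start of Col18a1 and 2 times in Col16a1. These are matches of letters, not binding sites.

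Col18a1, the basement membrane collagen that yields endostatin, covers chr10:77052178-77166548 on GRCm38 (GENCODE M21, minus strand). It had 50995 and 39086 UMIs in KO 1 and KO 2 and 38999 and 61665 in WT 1 and WT 2, or 859 and 759.97 CPM in KO and 1118 and 1253 in WT. Both KO libraries lay below both WT libraries, and the lowest WT library exceeded the highest KO library. The mean was 809 ± 69.8 in KO and 1185 ± 95.3 in WT (SD, n = 2 libraries each), so the KO mean was 68.3% of the WT mean. Col18a1 fell by 0.55 on the log2 scale (SE 0.08, edgeR adjusted p = 0.00255). The last exons of Col18a1 overlap Slc19a1 on the opposite strand, which had 131 to 212 UMIs per library.

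Almost every cell carried a UMI of Col18a1, so the difference lay in the number of UMIs per cell. With every cell thinned to 5000 UMIs, 95.8% and 94.8% of KO cells and 98.2% and 98.9% of WT cells held at least 1 UMI. Without thinning the shares were 98.4% and 98.1% in KO and 98.0% and 98.4% in WT, which overlap. The median thinned cell held 4 and 3 UMIs in KO libraries and 5 and 6 in WT libraries, and the 90th percentile was 8 and 7 in KO and 10 and 11 in WT. At least 5 UMIs were present in 39.3% and 34.0% of KO cells and in 56.8% and 64.4% of WT cells. The difference therefore spanned the range of UMIs per cell and was not limited to cells without a UMI.

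**Figure D2:**
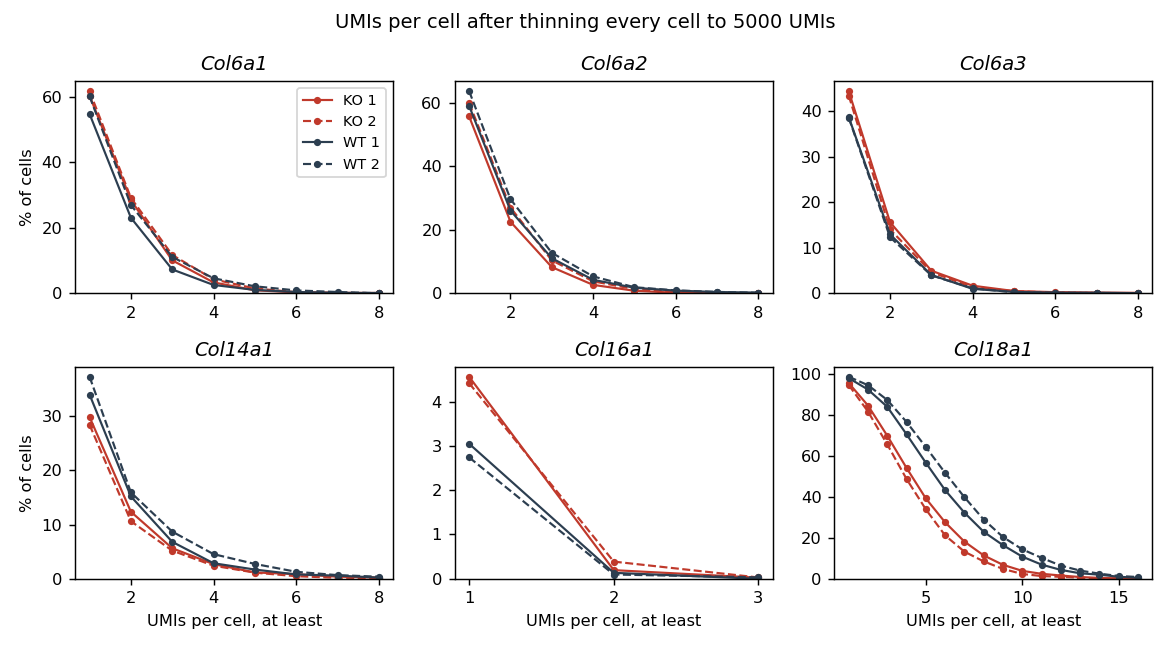
Share of cells (y axis, percent, own scale per gene) with at least the number of UMIs on the x axis, after each cell was thinned to 5000 UMIs, for 6 collagen genes, with 1 line per library (KO red, WT dark, replicate 1 solid, replicate 2 dashed). For Col18a1 both KO lines lie below both WT lines over most of the range, with 39.3% and 34.0% of KO cells and 56.8% and 64.4% of WT cells at 5 UMIs or more.

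Col14a1, a FACIT that binds decorin and lies on collagen I fibrils, covers chr15:55307750-55520803 on the plus strand. It stood at 104 and 93.8 CPM in KO (6201 and 4825 UMIs) and at 123 and 144 in WT (4294 and 7067 UMIs). Both KO libraries were below both WT libraries, by less than for Col18a1. The mean was 99.1 ± 7.50 in KO and 133 ± 14.5 in WT (SD, n = 2), so the KO mean was 74.4% of the WT mean. Col14a1 fell by 0.43 on the log2 scale (SE 0.09, edgeR adjusted p = 0.0134). Without WT 2 the log2 change was −0.31 and no longer passed (edgeR adjusted p = 0.0642).

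In thinned cells a UMI of Col14a1 was found in 29.8% and 28.4% of KO cells and in 34.0% and 37.3% of WT cells, and the shares did not overlap (exact permutation test over libraries, two-sided p = 0.333, the smallest that 2 against 2 allows). Without thinning the shares were 47.0% and 46.7% in KO and 52.6% and 56.6% in WT. The variance of Col14a1 over thinned cells was 2.26 and 2.08 times the mean in KO and 2.39 and 2.43 times in WT, where counting noise alone gives a ratio near 1. It was 1.66 to 1.81 for Col18a1 and 1.19 to 1.44 for the chains of collagen VI. The 5% of cells with the most Col14a1 held 38.8% and 40.0% of its UMIs in KO and 35.1% and 35.2% in WT, whereas the top 5% of cells for Col18a1 held 13.1% and 13.4% in KO and 12.1% and 11.7% in WT. Both measures depend on a gene's mean UMIs per thinned cell, which was 0.535 and 0.486 in KO and 0.630 and 0.722 in WT for Col14a1, and 4.18 and 3.79 in KO and 5.47 and 6.05 in WT for Col18a1, so they do not rank the 2 genes by evenness.

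Col16a1, a FACIT found near microfibrils and basement membranes, was the member that rose. It covers chr4:130047840-130099283 on the plus strand, and stood at 9.85 and 9.02 CPM in KO (585 and 464 UMIs) and 6.68 and 6.03 in WT (233 and 297 UMIs). Both KO libraries lay above both WT libraries. The mean was 9.44 ± 0.586 in KO and 6.36 ± 0.456 in WT (SD, n = 2), and Col16a1 rose by 0.57 on the log2 scale (SE 0.11, edgeR adjusted p = 0.00972). In thinned cells 4.56% and 4.41% of KO cells and 3.05% and 2.74% of WT cells held a UMI (exact permutation p = 0.333, the smallest possible). Without thinning they were 11.4% and 11.1% in KO and 8.32% and 7.50% in WT. In the same thinned cells the endothelial gene Cdh5 was seen in at most 0.122% of the cells of a library, and Erg, also an endothelial gene, in 7.41% to 12.5%. The Col16a1 call was lost (log2 change 0.40, edgeR adjusted p = 0.174) when cells with 2 or more UMIs of the fibroblast marker list described further on were left out.

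Col12a1, a FACIT of dense connective tissue and of loaded matrix, lies at chr9:79598991-79718831 on the minus strand and was sparse. It had 97 and 97 UMIs in KO and 91 and 105 in WT, or 1.63 and 1.89 CPM in KO and 2.61 and 2.13 in WT. Both KO libraries were below both WT libraries, but the difference did not pass (log2 change −0.42, SE 0.20, edgeR adjusted p = 0.179). In thinned cells 0.853% and 0.805% of KO cells and 1.21% and 0.773% of WT cells held a UMI, and these shares overlap. Without thinning the shares were 2.05% and 2.33% in KO and 3.21% and 2.70% in WT, which do not.

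Col8a1, the first chain of the network collagen VIII, was also sparse and fell most in relative terms. It lies at chr16:57624258-57754737 on the minus strand and had 60 and 73 UMIs in KO, in 35 and 40 cells, and 137 and 113 UMIs in WT, in 73 and 71 cells. These were 1.01 and 1.42 CPM in KO and 3.93 and 2.30 in WT, so the WT libraries differed from each other by more than the KO libraries did, and the groups did not overlap. The mean was 1.21 ± 0.289 in KO and 3.11 ± 1.15 in WT (SD, n = 2), the KO mean being 39.1% of the WT mean. Col8a1 fell by 1.34 on the log2 scale (SE 0.30, edgeR adjusted p = 0.0161). In thinned cells 0.414% and 0.537% of KO cells and 1.70% and 1.10% of WT cells held a UMI, and without thinning 0.823% and 1.14% of KO cells and 3.01% and 2.17% of WT cells did. The Col8a1 call was lost without KO 1 (log2 change −1.11, adjusted p = 0.0531) and without WT 1 (−0.93, adjusted p = 0.0706).

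Col8a2, the second chain of collagen VIII, is at chr4:126286793-126314330 on the plus strand and had 5 and 10 UMIs in KO and 2 and 2 in WT. Over both libraries of a genotype these were 15 UMIs in KO and 4 in WT, a ratio of 2.85 after scaling by the TMM-adjusted library totals, with an exact 95% interval of 0.907 to 11.8 that covers counting error only and includes no difference. With 2 to 10 UMIs Col8a2 was at the edge of detection in every library, while Col8a1 had 60 to 137. The log2 ratio of Col8a2 to Col8a1 was −3.59 and −2.87 in KO and −6.10 and −5.82 in WT, from these few UMIs.

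None of the 3 chains of collagen VI passed the test. Col6a1 (chr10:76708792-76726168) stood at 210.4 and 218 CPM in KO and 191 and 213 in WT, which overlap (log2 change 0.08, SE 0.07, edgeR adjusted p = 0.456). Col6a2 (chr10:76595762-76623630) stood at 182 and 202 in KO and 209.9 and 229 in WT, lower in both KO libraries, and did not pass (−0.20, SE 0.08, edgeR adjusted p = 0.113). Col6a3 (chr1:90765923-90843971), the longest chain, stood at 139.95 and 125 in KO and 111 and 113 in WT. Its KO libraries were both above its WT libraries (0.24, SE 0.07, edgeR adjusted p = 0.0567), just outside the threshold. Without KO 2 the log2 change of Col6a3 was 0.32 and passed (edgeR adjusted p = 0.0197). Col6a1 and Col6a2 are neighbours, 85.2 kb apart on the same strand, and Col18a1 lies 326 kb from Col6a1 on that strand.

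Because 1 α1, 1 α2 and 1 α3 chain make a collagen VI monomer, the ratio of the chains was taken within each library, where scaling cancels. The log2 ratio of Col6a1 to Col6a2 was 0.21 and 0.11 in KO and −0.14 and −0.10 in WT, a mean difference of 0.28. Col6a1 had more UMIs than Col6a2 in both KO libraries and fewer in both WT libraries. An exact permutation test over libraries gave a two-sided p of 0.333, the smallest that 2 against 2 allows. The log2 ratio of Col6a3 to Col6a1 was −0.59 and −0.81 in KO and −0.78 and −0.91 in WT, which overlap (mean difference 0.15, exact p = 0.667). These ratios compare the change between genotypes and not the amounts of chains, since UMIs of different genes are not captured equally.

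In thinned cells a UMI of Col6a1 was found in 60.5% and 61.8% of KO cells and 54.8% and 60.2% of WT cells, and one of Col6a2 in 55.8% and 60.0% of KO cells and 59.1% and 63.8% of WT cells. Col6a3 was found in 44.4% and 43.4% of KO cells and 38.7% and 38.5% of WT cells. The shares of Col6a3 and Col6a1 did not overlap between genotypes (exact permutation p = 0.333 each, the smallest possible), and those of Col6a2 did (exact p = 0.667). Without thinning Col6a1 was found in 85.9% and 87.8% of KO cells and 81.8% and 86.4% of WT cells, which overlap (exact p = 0.667). Col6a3 was then found in 73.1% and 70.9% of KO cells and 63.5% and 66.6% of WT cells, which do not, and Col6a2 in 83.7% and 85.2% of KO cells and 84.3% and 87.4% of WT cells, which do. All 3 chains were seen together in 16.7% and 18.6% of KO cells and 15.6% and 18.1% of WT cells, and none in 11.4% and 11.1% of KO cells and 13.7% and 11.1% of WT cells. Across cells of a library Col6a1 and Col6a2 correlated most among the pairs of collagen VI chains, with Pearson's r of 0.142 and 0.181 in KO libraries and 0.241 and 0.261 in WT libraries. The cells of a library share its depth and preparation, these sparse counts give weak correlations, and r is given as a description.

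Markers of other cell types also differed between genotypes, among them those of fibroblasts, which make collagens VI, XII and XIV in the adventitia. The 10 listed fibroblast genes summed to 329 and 411 CPM in KO and 484 and 562 in WT, and most of this was Mfap5, a gene also expressed by smooth muscle. Without Mfap5 the other 9 summed to 28.0 and 41.6 in KO and 12.6 and 13.7 in WT, and no marker was at 0 in any library. Cd34, Dpt, Lum and Ly6a were called higher and Mfap5 lower, and Pdgfra, Pi16, Clec3b, Scara5 and Tcf21 did not pass. Lum is also a leading gene of cluster 8 of the KO cells, described further on. In thinned cells it was seen in 1.39% and 2.12% of KO cells and 0.403% and 0.226% of WT cells. Pdgfra was seen in 3.44% and 3.67% of KO cells and 2.69% and 3.55% of WT cells, which overlap. When cells with a UMI of Pdgfra, Dpt, Pi16, Clec3b, Scara5 or Tcf21 were left out, a choice made after the data were seen, Col14a1 changed by −0.51 (edgeR adjusted p = 0.00313), Col16a1 by 0.52 (0.0148), Col18a1 by −0.54 (0.00122) and Col8a1 by −1.64 (0.00458) on the log2 scale. Col6a3 then changed by 0.23 and passed (0.0490). Leaving out cells with 2 or more UMIs of the 10-gene list removed 70.6% to 80.1% of the cells of a library. Col18a1, Col14a1 and Col8a1 then kept their calls (log2 changes −0.51, −0.69 and −1.78), Col16a1 lost its call (0.40, edgeR adjusted p = 0.174) and Col6a1 gained one (0.30, 0.0209). Col6a2 (0.031, 0.836) and Col12a1 (0.77, 0.303) then had a positive log2 change and did not pass.

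Endothelial markers (7 genes) added up to 32.5 and 32.2 CPM in KO and 42.8 and 46.7 in WT, with Cdh5, Cldn5 and Vwf called higher and Erg and Pecam1 lower. The 5 pericyte markers summed to 546 and 713 CPM in KO and 769 and 879.5 in WT, with Kcnj8 called higher and Cspg4 lower. The 7 macrophage markers summed to 8.93 CPM in KO 1 and 0.369 in KO 2, against 0.545 and 0.325 in WT. Of these lists 2 and 1 endothelial markers were at 0 in WT 1 and WT 2, 1 macrophage marker was at 0 in KO 2, and 3 were at 0 in each WT library. The part of these cell types in the collagen results was not tested.

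Clusters of cells were formed within each genotype with the members left out of the genes used, and only clusters with at least 50 cells in each library of the genotype were described, 8 in KO and 6 in WT. CPM of a cluster is scaled to the total UMIs of that cluster in a library, without TMM adjustment. They are given no cell type name and are called by number, KO-c10 being cluster 10 of the KO cells, and by genes among their leading 10. A KO cluster and a WT cluster were set side by side where each shared more of its 50 leading genes with the other than with any other cluster, a pairing chosen after the data were seen. The pairs are KO-c10 and WT-c3 (Adamtsl1, Dlx6, Rgs5, Dlx5), KO-c8 and WT-c1 (Dcn), KO-c6 and WT-c0 (Vcam1), KO-c2 and WT-c2 (Egr1), and KO-c3 and WT-c4 (Spon1). In that order they shared 35, 24, 18, 14 and 12 of 50 leading genes, so the later pairs are loose and need not be the same cells. WT-c2 also shared 10 of 50 with KO-c5, near the 14 it shared with KO-c2. Shares of cells in the paired clusters are not compared between genotypes. They also differed between libraries of a genotype. KO-c10 held 6.2% and 16.4% of the cells of KO 1 and KO 2, and WT-c3 held 4.9% and 9.8% of those of WT 1 and WT 2. The part of these shares in the library levels of Col14a1, Col6a1 and Col6a2 was not tested. KO-c0, with 143 and 124 cells and few UMIs per cell, paired with no WT cluster. Its leading genes, taken over both KO libraries together, were macrophage genes (C1qa, C1qb, C1qc). The 7 macrophage markers summed to 8.93 CPM over KO 1 and 0.369 over KO 2, so few of these UMIs came from KO 2. In KO-c0 Col18a1 stood at 813 and 768 CPM, so these leading genes do not name its cells. Its median was 3816 and 3867 UMIs per cell, and that of WT-c5 was 3349 and 3569. KO-c5, KO-c7 and WT-c5 also had no pair, and KO-c7 held 35.7% and 23.7% of the cells of KO 1 and KO 2.

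Col18a1 was lower in KO in all 5 pairs, in both libraries. In KO-c10 it stood at 669 and 703 CPM, against 1003 and 1107 in WT-c3, and in KO-c8 at 783 and 702, against 952 and 1084 in WT-c1. In KO-c6 it stood at 1099 and 1091, against 1179 and 1406 in WT-c0, the smallest gap of the 5 pairs. In KO-c2 it stood at 902 and 834, against 1165 and 1355 in WT-c2, and in KO-c3 at 908 and 836, against 1114 and 1196 in WT-c4. Among the clusters of a genotype the mean level of Col18a1 varied 1.60-fold in KO and 1.27-fold in WT.

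Col14a1 differed widely between clusters. Its mean level ranged 4.88-fold in KO, from 49.5 CPM in KO-c7 to 241.5 in KO-c8, and 6.78-fold in WT, from 60.3 in WT-c4 to 409 in WT-c3. In the Adamtsl1 and Dlx6 pair it stood at 227 and 212 in KO-c10, against 387 and 430.3 in WT-c3, and in the Egr1 pair at 80.9 and 55.9 in KO-c2, against 112 and 137 in WT-c2. In the Dcn pair the libraries overlapped, with 303 and 179.8 in KO-c8, against 224 and 257 in WT-c1. Col14a1 was lower in both KO libraries in 3 of the 5 pairs and overlapped in 2, the Dcn and Vcam1 pairs.

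In the same Adamtsl1 and Dlx6 pair Col6a1 and Col6a2 were highest of the described clusters of each genotype by the mean of its libraries. Col6a1 stood at 341 and 309 in KO-c10, against 397 and 453 in WT-c3, and Col6a2 at 297 and 333 in KO-c10, against 470.4 and 491 in WT-c3. Col6a3 was highest in KO-c6, led by interferon-response genes (Ifit3, Ifit1) and Vcam1, at 246 and 257, against 152 and 153 in WT-c0. In KO-c3 Col6a3 stood at 71.7 and 61.8, against 94.4 and 92.6 in WT-c4, the lowest cluster in both genotypes. Both KO libraries were above both WT libraries for Col6a3 in 3 of the 5 pairs and below them in 2, and for Col6a1 they were above in 4 pairs and below in the Adamtsl1 and Dlx6 pair.

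Col16a1 was higher in both KO libraries in all 5 pairs. It had 28 and 59 UMIs in KO-c10, or 8.65 and 7.74 CPM, against 0 and 9 UMIs in WT-c3, or 0 and 1.96 CPM, where 3 counts in library WT 1 would have been 1.75 CPM. In the Dcn pair it stood at 12.5 and 16.7 in KO-c8, against 10.04 and 8.68 in WT-c1. Col8a1 was at 0 UMIs in both libraries of KO-c10 and at 0 and 1 UMI in WT-c3, and in the Vcam1 pair it had 5 and 4 UMIs in KO-c6, against 29 and 26 in WT-c0. In KO-c2 it had 10 and 7 UMIs, against 46 and 43 in WT-c2. In the Dcn pair Col8a1 overlapped, with 3.96 and 4.70 CPM in KO-c8, against 8.89 and 3.78 in WT-c1, and it overlapped in the Spon1 pair, with 1.07 and 0 in KO-c3, against 0.983 and 1.09 in WT-c4. Col8a1 was thus lower in both KO libraries in 2 of the 5 pairs. Of the 73 Col8a1 UMIs of library KO 2, 29 came from the 365 cells of KO-c8. A further 27 came from the 71 cells of KO-c5, led by Corin and Tnnt2. Of the 60 in library KO 1, 20 came from the 325 cells of KO-c8 and 11 from the 366 cells of KO-c5.

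**Figure D3:**
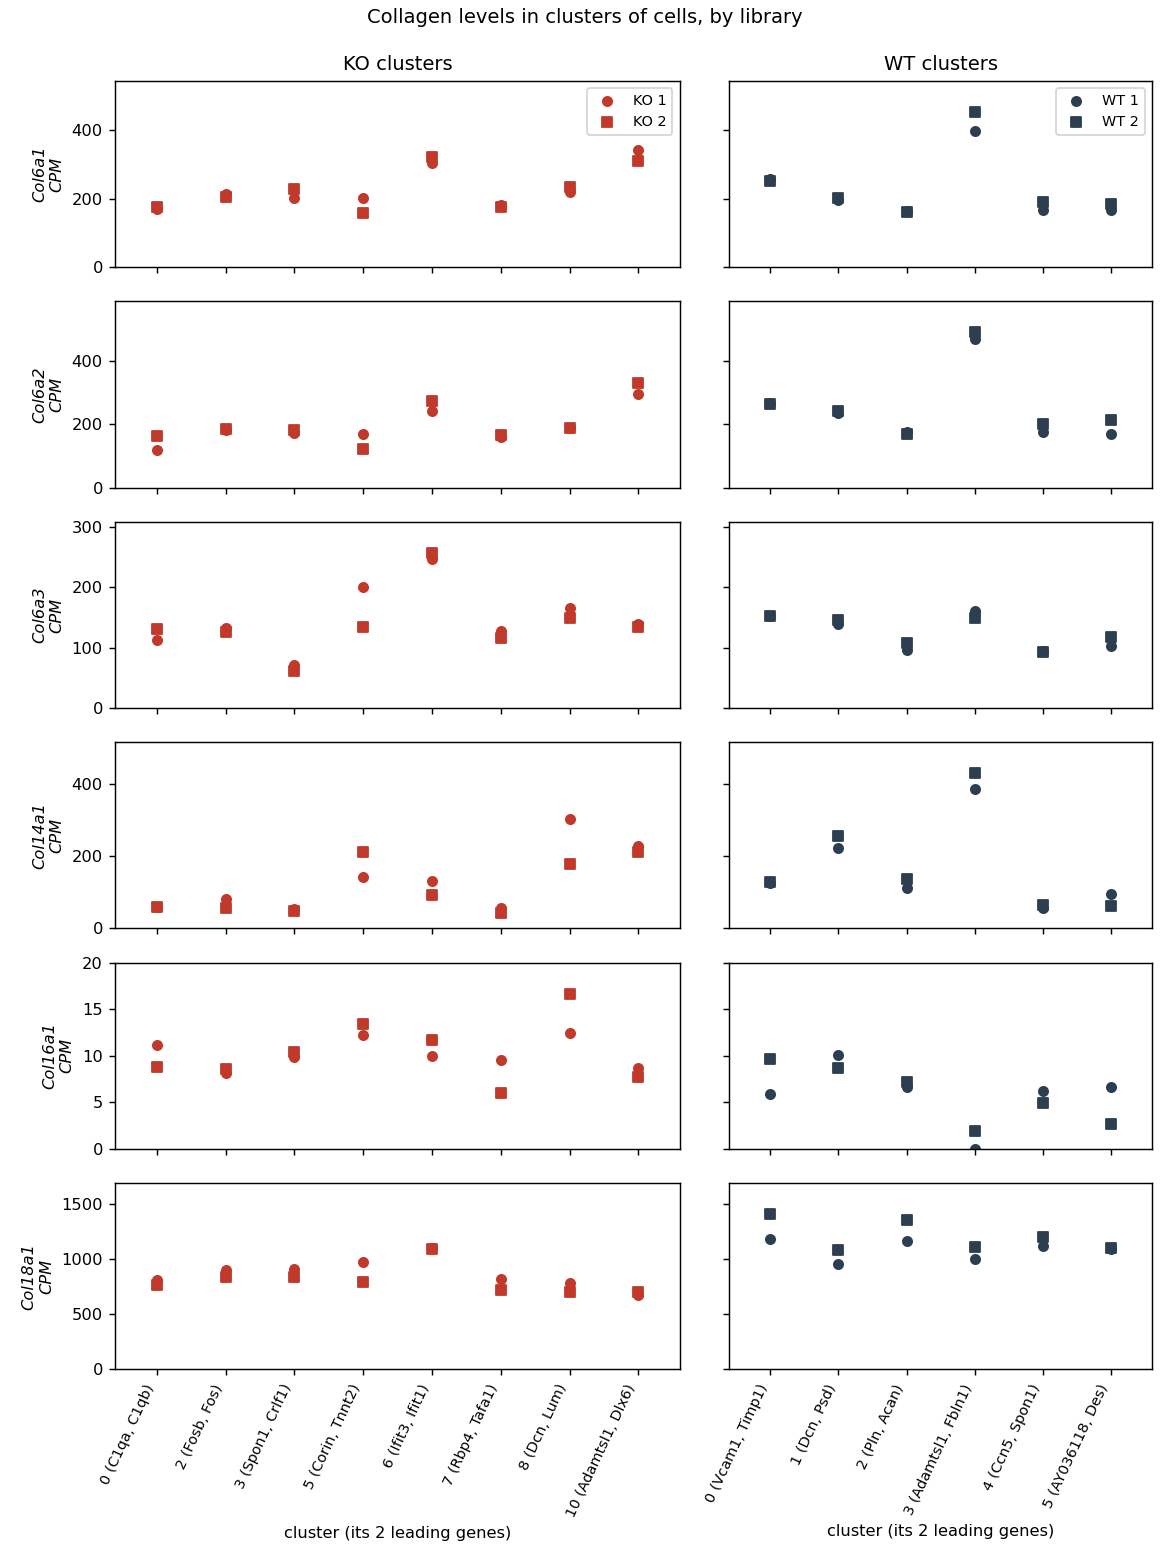
CPM (y axis, linear from 0, shared across a row) of 6 collagen genes in each cluster with at least 50 cells per library, KO clusters left and WT clusters right, with 1 point per library (circles replicate 1, squares replicate 2). Col6a1, Col6a2 and Col14a1 peak in WT-c3 at 387 to 491 CPM, and Col6a3 peaks in KO-c6 at 246 and 257. CPM is scaled to the total UMIs of a cluster in a library, without TMM adjustment.

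Likeness of pattern was read over the 29 profiles of a cluster in a library with at least 50 cells, centred per library, among 5743 genes. They include KO-c4 in library KO 1 (50 cells), a cluster not described above because KO 2 had 33 cells of it. The gene most like Col6a1 was Col6a2 (r = 0.966), followed by Ppic (0.909) and Col1a2 (0.895), and Col6a2 was most like Col6a1, Ppic (0.916) and Bdnf (0.912). Col6a3 had Cav3 (0.806), Hmgcs1 (0.804) and Arhgap10 (0.803) as its nearest genes, none of them a collagen. Col14a1 was most like the basement membrane chain Col4a6 (0.901), then App (0.850) and Prex2 (0.842), and Col18a1 was most like Axl (0.858), Cav1 (0.812) and Adgre5 (0.771). The profiles of a library share its depth and preparation, so r is a description.

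Counts for the other collagens and for genes that act on collagens are read against the 20.3% of all tested genes that were called. That share covers genes of every level that passed the expression filter, many of them sparse. The lists were chosen with earlier results of these data known, so the counts are descriptions. Of 8 tested fibrillar collagens 7 fell, 0 rose and 1 did not pass, with a median log2 change of −1.03. The smallest p among them belonged to Col3a1 (−1.63), Col5a2 (−1.27) and Col1a2 (−0.99), each a larger fall than those of Col18a1 and Col14a1. Of 8 tested basement membrane and network collagens 4 fell and 4 did not pass, with a median of −0.40, and the smallest p among them belonged to Col15a1 (−5.98), Col4a2 (−0.76) and Col4a1 (−0.56). Of 5 tested other non-fibrillar collagens 3 rose, namely Col6a6 (0.86), a further chain of collagen VI, Col23a1 (1.15) and Col22a1 (1.01), and 2 did not pass.

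**Figure D4:**
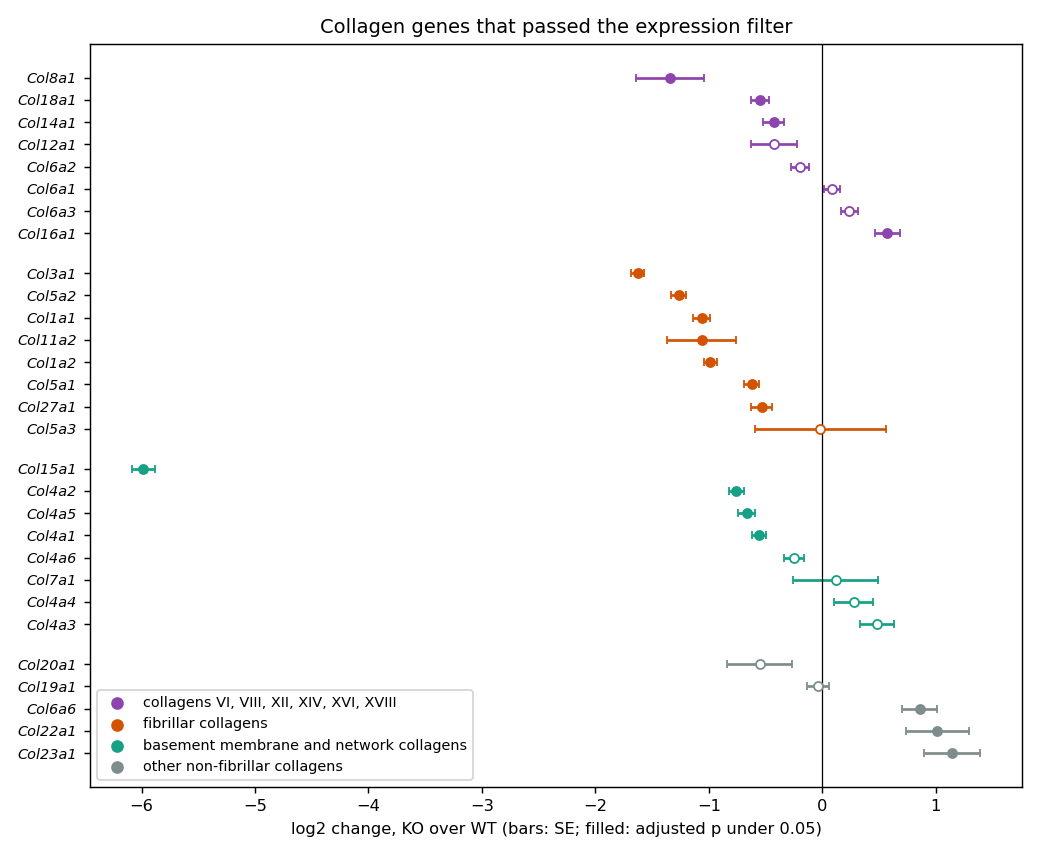
Log2 change, KO over WT (x axis), with its SE (bars) for every tested collagen gene, grouped by class, with filled points where edgeR's adjusted p is under 0.05. Col8a1, Col18a1 and Col14a1 lie left of 0 and Col16a1 right of it, and the fibrillar collagens extend to −1.63.

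Of 11 tested collagen receptors 3 fell, none rose and 8 did not pass, with a median log2 change of −0.19. The share called, 27.3%, was near the 20.3% of all tested genes. Cspg4, a proteoglycan that binds collagen VI, stood at 216 and 215 CPM in KO and 355 and 363 in WT and fell by 0.74 (edgeR adjusted p = 0.000134). It is also in the pericyte list, whose sum was lower in KO, and the part of such cells in this call was not tested. Ddr1, a tyrosine kinase that binds collagen, fell by 0.42 (0.0255) and Antxr1, which binds the α3 chain of collagen VI, by 0.28 (0.0453).

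Of 14 tested partners that bind collagens VI, XII and XIV, 5 rose, 5 fell and 4 did not pass, 71.4% called, with a median of −0.02. Biglycan (Bgn), which binds collagen VI, stood at 916 and 892 CPM in KO and 2363 and 2305 in WT and fell by 1.37 (edgeR adjusted p = 3.99e-06). Tnxb, which binds collagens XII and XIV, fell by 1.58 (1.84e-05), and Thbs1 rose by 2.10 (1.29e-05). The other 3 that fell were Comp, Fn1 and Hspg2, and the other 4 that rose were Dcn, Dpt, Lum and Vwa1. Dpt and Lum are also in the fibroblast list, whose sum without Mfap5 was higher in KO, and the part of such cells in these 2 calls was not tested.

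Of 22 tested genes of collagen folding, secretion and processing 17 fell, 2 rose and 3 did not pass, 86.4% called, with a median of −0.53. Plod2, which hydroxylates telopeptide lysines for crosslinking, stood at 41.4 and 43.7 CPM in KO and 131.5 and 125 in WT and fell by 1.59 (edgeR adjusted p = 6.66e-06). Colgalt1, which adds galactose to hydroxylysine, fell by 0.66 (0.000458). Pcolce2, an enhancer of procollagen C-proteinase, rose by 1.05 (0.000439), and the other gene that rose was Pcolce.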

How the data were processed

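The deposited values are raw UMI counts for each gene in each cell barcode. Per the file headers the authors ran Cell Ranger 5.0.1, and the submitters' processing notes add mm10 and Seurat 4.0, whose role they do not give. The files hold 14696 barcodes, and the labels state 2151 to 4031 cells per library after a filter whose criteria were not stated there. Here 13468 cells were kept, each with 1000 or more UMIs, 500 or more genes and no more than 10% of UMIs from mitochondrial genes. No doublet was removed. Depth was 35255748 to 59203071 UMIs per library, and intervals cover counting error only.

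UMIs were summed per library, filtered with filterByExpr, scaled by TMM and tested with edgeR 4.0.16 (quasi-likelihood, R 4.3.3), with Benjamini-Hochberg adjustment over 14474 genes and a threshold of 0.05. SD and n refer to 2 libraries per genotype. Shares used cells thinned to 5000 UMIs, leaving out 150, 169, 197 and 162 shallower cells of KO 1, KO 2, WT 1 and WT 2. Leiden clusters (scanpy 1.11.5, resolution 0.5) used 2000 variable genes without the members. The edgeR step was tested on simulated data. Replicate libraries were not duplicates of each other (chi-square per degree of freedom 16.0 in KO and 13.8 in WT).

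The members and gene lists were chosen with earlier results of these data known. Genes were named by a rule: the members; Tgfbr1, Tgfbr2 and Myh11; the 3 genes of smallest p in each list; and the 3 genes most alike for each member of at least 20 CPM. Other named genes were picked after their values were seen. Alternatives were DESeq2 1.42.0, limma-voom 3.58.1, other scaling, no low-count filter, other cell filters, a replicate block and leaving out each library. Gene positions are from GENCODE M21 (GRCm38), promoters from RefSeq.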

Additional observations from a re-analysis of the deposited data

How the results depend on the processing

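Col18a1 kept its direction and its call under all 14 alternatives (log2 change −0.64 to −0.46). Leaving out each library gave 805 to 1161 genes higher and 1039 to 1297 lower in KO, both lowest without WT 1, and log2 changes of 0.15 to 0.32 for Col6a3 (called without KO 2), −1.70 to −0.93 for Col8a1 (lost without KO 1 or WT 1) and −0.54 to −0.31 for Col14a1 (lost without WT 2). Leaving out cells with 2 or more UMIs of the 10 fibroblast-list genes removed 70.6% to 80.1% of the cells, since Mfap5 is in that list. It gave 768 genes higher and 986 lower of 12026 tested, and fewer cells and tested genes go with these counts. Col6a1 then changed by 0.30 (adjusted p = 0.0209) and was called, Col6a2 by 0.031 (0.836) and Col12a1 by 0.77 (0.303) turned positive, and Col16a1 at 0.40 (0.174) was lost; the cause was not tested. Col6a2 was called with no low-count filter (−0.20, 0.0488). Col6a3 was called with no low-count filter (0.24, 0.0137), under DESeq2 (0.24, 0.0337), under the stricter cell filter (0.28, 0.0395) and without cells with a UMI of 6 fibroblast genes (0.23, 0.0490). The replicate numbers of KO and WT share only a number (correlation of their deviations 0.0437); a replicate block gave 1523 genes higher and 1751 lower and changed no member's call, nor did leaving out the 5% of cells with the most UMIs, where doublets would lie. Of 63 alternative detection-share differences 44 stayed within 1 SD and 19 moved. Leaving out 1 of the 2 libraries of a genotype cannot shift a difference by more than this SD, which comes from the same libraries. Those settings therefore do not test how stable the shares are. Without thinning 4 differences stayed and 5 moved, and with thinning to 2500 UMIs 4 stayed and 5 moved. A difference in percentage points changes with the depth per cell, so these depth settings do not test stability either. Without cells of 2 or more fibroblast-list UMIs 2 stayed and 7 moved. With 2 libraries per genotype an exact test cannot go below p = 0.333, and Col8a1, Col8a2 and Col12a1 rest on 2 to 137 UMIs per library.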

Other observations

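A KO cluster of 12 cells (5 in KO 1 and 7 in KO 2) was too small for the comparison of clusters. It was led by Prss12, Adamtsl2, Frzb and Eln, the gene of elastin. Col6a1 had 38 and 82 UMIs in it, or 630 and 677 CPM, Col6a2 had 38 and 86, or 630 and 710 CPM, and Col18a1 had 62 and 210, or 1028 and 1733 CPM. These are single values of few cells, and no comparison was made with them.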
